A study of Rattus norvegicus with 18 samples.

Results

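The somatic cells of the rat seminiferous tubule were set against 7 populations of germ cells, and the transcripts that lay beyond all 7 in the same direction were described. The comparison used 16 of the 18 arrays of the series, 2 for the tubular somatic cells and 14 for the germ cells. The remaining 2 arrays held interstitial cells, which lie outside the tubules, and are cited only to place a tubular signal. All cells came from testes of rats aged 22 days, and every RNA sample of 50 ng had passed 2 rounds of amplification. The germ cells were cells that bound laminin, cells that did not bind it, cells grown on STO feeders for 1, 5, 10 or 20 days, and cells grown on MSC1 feeders for 20 days. STO is a line of mouse embryonic fibroblasts, and MSC1 is a line derived from mouse Sertoli cells. The labels mark both laminin-sorted populations as cultured without a day, and they give no culture for the tubular somatic cells. The sources used here do not give the strain, the number of animals, the way in which the tubular cells were isolated or any removal of feeder cells. Each population was read by 1 array of type A and 1 of type B, so no difference has a replicate error or a test, and precision is limited by the number of arrays. The 7 germ populations are different conditions and not replicates of each other.

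A seminiferous tubule holds germ cells at all stages, the Sertoli cells that nurse them, and a sheath of flat, contractile peritubular myoid cells around a basement membrane. Sertoli cells seal the inner tubule with tight junctions, clear dying germ cells, feed the others with lactate and secrete growth factors, binding proteins and inhibin. Around the age studied here their division comes to an end while the first spermatocytes advance through meiosis. A fraction named tubular somatic should therefore hold both Sertoli and myoid cells, and 24 gene lists were drawn up for these cells, their functions and the cells that may accompany them. In a bulk sample, fewer cells of a type and less RNA per cell cannot be told apart.

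A signal is the fluorescence of a probe set, a group of probes for a transcript, scaled on each array to an average of 250 and raised to a floor of 50 before any fold was taken. Signals of different genes come from different probes and do not rank their transcripts. A probe set was called higher where the tubular signal was at least 250 and at least 3-fold that of every germ library. It was called lower where every germ signal was at least 250 and at least 3-fold the tubular signal. Of 31042 probe sets, 784 (2.53%) were higher than all 7 germ libraries and 302 (0.973%) were lower. Read by gene, 455 of 13807 genes (3.30%) were higher and 216 (1.56%) were lower. Each gene was read through its brightest probe set on type A, or on type B where type A lacks the gene.

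Against single germ libraries the calls were more numerous and more even between the directions. Against laminin-binding cells 1631 probe sets (5.25%) were higher in tubular somatic cells and 1488 (4.79%) lower, and against non-binding cells 2075 (6.68%) and 1643 (5.29%). The counts against STO feeder cultures were 1651 (5.32%) higher and 1697 (5.47%) lower on day 1, 1834 (5.91%) and 1786 (5.75%) on day 5, 1714 (5.52%) and 1693 (5.45%) on day 10, and 2013 (6.48%) and 1877 (6.05%) on day 20. Against the MSC1 culture they were 1747 (5.63%) and 1833 (5.90%). The 7 comparisons share the tubular library, so any peculiarity of its 2 arrays enters all of them.

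**Figure D1:**
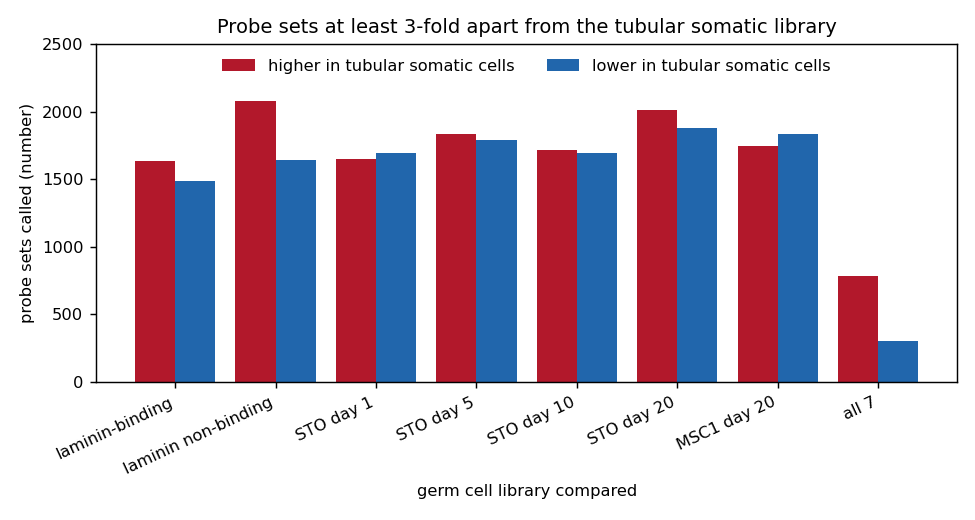
Number of probe sets called higher (red) or lower (blue) in tubular somatic cells, against each germ library and against all 7 together, of 31042 probe sets. The single comparisons gave 1488 to 2075 calls per direction, while 784 and 302 passed all 7.

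Laminin-binding cells came closest to the tubular fraction more often than any other germ library. For 183 of the 455 higher genes the brightest germ signal was that of laminin-binding cells, for 93 that of the MSC1 culture, and for the other 5 libraries it was between 21 and 49 genes. The dimmest germ signal of the 216 lower genes was likewise found most often in laminin-binding cells, for 65 genes, then in non-binding cells for 49 and in the MSC1 culture for 44. In the text below, the fold of a higher gene is taken against its brightest germ library and the fold of a lower gene against its dimmest. The median of these folds was 4.89 for the higher and 5.17 for the lower genes, and 45 and 33 genes reached 10-fold. For 15 higher and 31 lower genes the dim side lay under the floor, and such folds are written as at least that many fold.

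**Figure D2:**
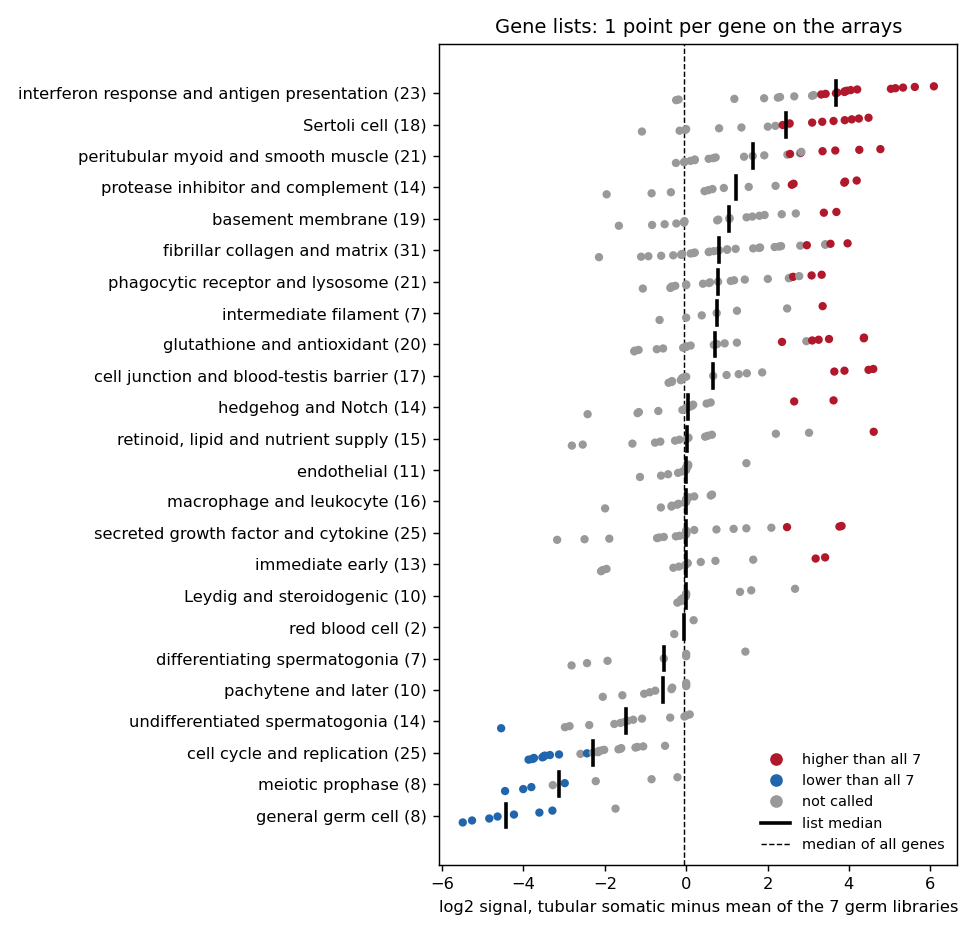
Difference in log2 signal between tubular somatic cells and the mean of the 7 germ libraries, with 1 point for each list gene on the arrays (number in brackets), the median of each list as a black bar and the median of all 13807 genes, -0.04, as a dashed line. The interferon, Sertoli and myoid lists have medians of 3.68, 2.45 and 1.64, and the general germ cell list lies lowest at -4.43.

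Sertoli cell transcripts were the first of the 2 programmes looked for. Of 24 list genes, 18 were on the arrays and 17 of these had a signal above the floor in at least 1 library. In all, 9 of the 18 (50.0%, beside 3.30% of all genes) were higher than all 7 germ libraries and none was lower, and the list median was 2.45 in log2 difference to the germ mean against -0.04 for all genes. Wt1, a transcription factor that keeps Sertoli cell identity, read 1273 in tubular somatic cells and 39.5, 61.6 and 155 in the germ libraries (lowest, median and highest, the order used throughout). That was 8.20-fold over laminin-binding cells, the brightest germ library for this gene. Gata4, a transcription factor of the gonadal somatic cells that acts with Wt1, read 1089 against 69.0, 103 and 152, or 7.16-fold. The interstitial library read 242 for Wt1 and 652 for Gata4. The Wt1 gene lies at chr3:112019721-112068454 and Gata4 at chr15:41635572-41707252 of the GRCr8 assembly.

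Secreted and junctional products of Sertoli cells followed. Dhh, the hedgehog ligand through which Sertoli cells act on the cells outside the tubule, read 2526 against 121, 189 and 466 and was 5.42-fold higher. Cldn11, the claudin of the blood-testis barrier, read 3389.9 against 55.6, 88.3 and 637, or 5.32-fold. Its germ values fell into a dim set, with 55.6 on STO day 20, and a bright pair, 637 in laminin-binding cells and 616 on MSC1. Inha, the alpha subunit of inhibin that restrains pituitary FSH, read 713 against 46.6, 84.0 and 158. Shbg, whose product binds androgens in the tubule, read 537 against 70.5, 81.5 and 120.3. Inha was 4.53-fold and Shbg 4.46-fold higher, and both were dim in interstitial cells, at 85.2 and 68.5. The interstitial library read 440 for Dhh and 1621 for Cldn11.

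Among the other Sertoli genes called, Aard, a small alanine and arginine rich protein, read 2335 against 107, 120.5 and 295, or 7.92-fold. Vnn1, an enzyme that recycles pantothenate, read 1101 against 21.2, 40.1 and 244, or 4.52-fold, and at 996 it was almost as bright in interstitial cells. Mro, known from the developing male gonad, read 273 against 3.9, 33.8 and 71.2, or 3.83-fold. Several textbook Sertoli genes were not called. Clu, the secreted chaperone clusterin, read 982 against 74.3, 202 and 602, with the top value in the MSC1 culture and the next, 301, on STO day 20. Cst12, a cystatin, read 524 against 41.4, 89.6 and 254, with laminin-binding cells on top. Ctsl, a cathepsin that Sertoli cells secrete, read 4122 against 756, 1107 and 1489.8 by its list probe set, or 2.77-fold, and 2139.8 against at most 426.9 by another probe set, which passed.

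Other Sertoli genes were dim. Sox9, the transcription factor that starts Sertoli cell development, read 8.1, Amh, the anti-Muellerian hormone, 47.5, Nr0b1 42.2 and the androgen-regulated homeobox gene Rhox5 53.8 in tubular somatic cells, all near or under the floor. Gata1 read 124 and the inhibin beta subunit gene Inhbb 154. Of the 18 Sertoli genes on the arrays, 14 lay above 0 in log2 difference to the germ mean. The lowest lay at -1.09, which is brighter in the germ libraries. The summed signal of the 18 Sertoli genes was 19295 in tubular somatic cells, 9242 in interstitial cells and between 2381 and 3509 in germ libraries. Checked against these markers, the fraction held Sertoli cell transcripts, while Sox9, Amh and Rhox5 were absent or near the floor.

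**Figure D3:**
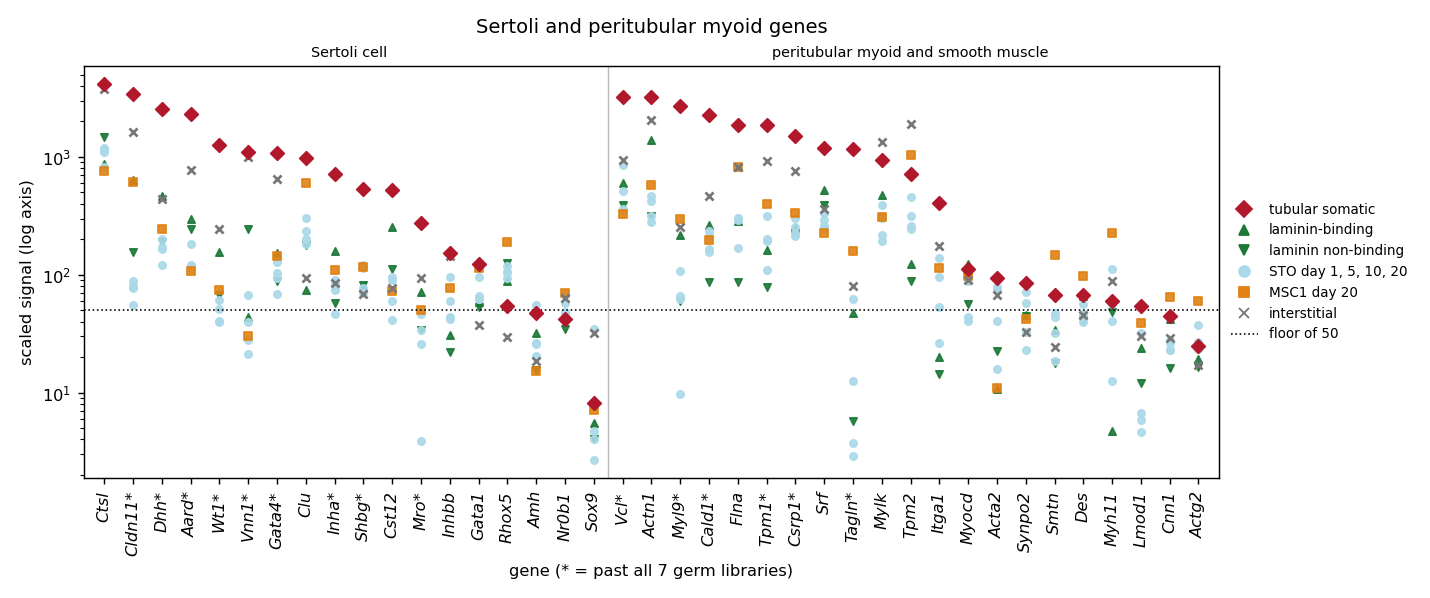
Scaled signal (log axis) of the 18 Sertoli and 21 peritubular myoid genes on the arrays in tubular somatic cells (red diamonds), the 7 germ libraries (triangles, circles and squares) and interstitial cells (crosses), with the floor of 50 as a dotted line. The asterisks mark 9 Sertoli and 6 myoid genes beyond all 7 germ libraries, and the tubular signals of Acta2, Myh11, Cnn1 and Des lie under 100.

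The second programme looked for was that of peritubular myoid cells, and a part of its list was called. All 21 genes of the myoid and smooth muscle list were on the arrays, 6 (28.6%, beside 3.30% of all genes) were higher than all 7 germ libraries, none was lower, and the list median was 1.64. Tagln, the actin-bundling protein transgelin, read 1163 against 2.9, 12.6 and 159.8, or 7.28-fold over the MSC1 culture. Myl9, a regulatory light chain of myosin, read 2681 against 9.7, 65.9 and 295, or 9.09-fold, again with the MSC1 culture on top. Cald1, the actin-binding protein caldesmon, read 2275 against 87.0, 196 and 265, or 8.59-fold. By these probe sets interstitial cells were dimmer than tubular somatic cells too, at 79.6, 253 and 466. Another called probe set of Cald1 hardly set them apart, with 2102.3 in tubular somatic and 1838.3 in interstitial cells.

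Tropomyosin 1 (Tpm1), which lies along actin filaments, read 1863 against 78.5, 194 and 402, or 4.63-fold. Vinculin (Vcl), which ties actin to adhesion sites, read 3239.6 against 330.3, 389 and 853, or 3.80-fold, and Csrp1, a LIM protein of smooth muscle, read 1493 against 214, 249 and 332, or 4.49-fold. Filamin A (Flna) at 1881 and alpha-actinin 1 (Actn1) at 3209.9 were bright but not called, since the MSC1 culture read 814 for Flna and laminin-binding cells 1395 for Actn1. The collagen-binding integrin gene Itga1 read 403 against 14.3, 53.0 and 138, or 2.92-fold, just short of the threshold.

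The genes that define contractile smooth muscle did not carry the label. Acta2, smooth muscle alpha-actin and the usual marker of myoid cells, read 93.5 in tubular somatic cells and 10.7, 22.5 and 78.9 in the germ libraries. Myh11, the smooth muscle myosin heavy chain, read 59.5, Cnn1, calponin, 44.7, Des, desmin, 67.3, and Actg2, Smtn and Lmod1 read 24.8, 67.5 and 53.8. For each of these 7 genes the tubular signal lay under 100 and was not above every germ library by 3-fold. Tpm2, another tropomyosin, read 721, dimmer than the MSC1 culture at 1029. Myh11, Cnn1, Des, Actg2 and Smtn even read higher in the MSC1 culture than in tubular somatic cells, with 226 for Myh11 and 146 for Smtn. These defining markers were therefore not called, and whether the fraction held myoid cells was not tested. Which cells gave the signal of the 6 called genes was not tested either. The summed signal of the 21 genes was 21662 in tubular somatic cells, 10484 in interstitial cells and 2323 to 5574 in germ libraries.

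Junction genes tie Sertoli cells to each other and seal the barrier between them. Of 17 on the arrays, 4 (23.5%, beside 3.30% of all genes) were higher than all 7, with a list median of 0.66. Cingulin (Cgn), a protein of the inner face of tight junctions, read 6412 against 121, 363 and 450.4 and was 14.2-fold higher, the largest fold of the list. F11r, the junctional adhesion molecule A, read 2391 against 108, 138 and 489, or 4.89-fold. Gja1, the gap junction protein connexin 43, read 3001 against 55.2, 311 and 728, or 4.12-fold, and the remaining call, Cldn11, is described above. Interstitial cells read 664 for Cgn, 801 for F11r and 2528 for Gja1. The tight junction scaffold Tjp1 read 2680.2 against 736, 1287 and 2389 and the alpha-catenin gene Ctnna1 7781 against 3478, 5129.6 and 6068, and both were bright in germ cells as well. Occludin (Ocln) read 567 against 76.8, 306 and 446. Claudin 3 and claudin 5 read 4.5 and 16.1 in tubular somatic cells, under the floor. Jam2 and Nectin2 were called only by a probe set other than the list's, with 1280.3 against at most 252.7 for Jam2 and 421.3 against at most 65.1 for Nectin2.

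Among 7 intermediate filament genes 1 was called (14.3%, beside 3.30% of all genes), nestin (Nes), with 1011 against 75.1, 88.4 and 163, or 6.21-fold. Vimentin (Vim), the filament protein of Sertoli cells, was bright at 4454 but read 1861 in the MSC1 culture and 366, 958 and 1861 over the germ libraries, so that its fold of 2.39 missed the threshold. The keratin genes Krt8 and Krt18, which immature Sertoli cells express, read 85.8 and 75.8 in tubular somatic cells, near the floor. Without the MSC1 culture 2 genes of this list were higher, as were 492 of all 13807 genes, beside 455 against all 7 libraries.

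Of the 455 higher genes, the 3 with the largest folds measured above the floor, Ifit2, Gbp4 and Mx2, are genes that answer to interferon. Interferons are cytokines of antiviral defence. They drive a set of antiviral genes through a DNA element read by the interferon regulatory factors, and they raise antigen presentation. Of 23 list genes on the arrays, 14 (60.9%, beside 3.30% of all genes) were higher than all 7 germ libraries, none was lower, and the list median of 3.68 was the highest of the 24 lists. The promoters below are shown because they carry the interferon element, searched as GAAA, any 2 bases, and GAAA on either strand of 300 bases around each start. The element was present in 9 of the 10 called genes with a promoter in the RefSeq table (GRCr8), in 5 of 8 list genes that were not called, and in 1312 of 33469 promoters (3.92%). The exception among the called genes was Mx1, and 4 called genes had no entry. The lines give the 120 bases before the start of 6 genes on the strand of the gene, with the match in capitals.
Ifit3, chr1:241527206-241527325, plus strand: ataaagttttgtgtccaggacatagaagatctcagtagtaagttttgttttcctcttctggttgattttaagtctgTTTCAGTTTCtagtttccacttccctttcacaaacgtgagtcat
Oas1a, chr12:41330346-41330465, plus strand: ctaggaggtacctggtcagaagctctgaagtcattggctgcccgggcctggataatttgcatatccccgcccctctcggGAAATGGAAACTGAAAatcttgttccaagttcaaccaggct
Irf7, chr1:205800024-205800143, minus strand: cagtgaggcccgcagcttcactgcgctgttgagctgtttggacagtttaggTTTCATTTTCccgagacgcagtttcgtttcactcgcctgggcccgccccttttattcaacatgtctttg
Ifi27, chr6:128355192-128355311, plus strand: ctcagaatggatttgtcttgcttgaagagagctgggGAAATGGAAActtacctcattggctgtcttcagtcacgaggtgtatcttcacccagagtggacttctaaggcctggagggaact
Ifitm3, chr1:205541759-205541878, minus strand: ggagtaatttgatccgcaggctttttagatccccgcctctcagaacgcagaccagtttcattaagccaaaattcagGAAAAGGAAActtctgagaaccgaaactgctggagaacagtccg
Gbp2, chr2:234005607-234005726, plus strand: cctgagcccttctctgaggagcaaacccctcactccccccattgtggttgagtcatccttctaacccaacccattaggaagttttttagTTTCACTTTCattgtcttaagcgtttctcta
The match began at position -44 in Ifit3 and Ifitm3, at -69 in Irf7, at -84 in Ifi27, at -31 in Gbp2, and at -41 and -35 in Oas1a, where 2 matches overlap. A match is a run of letters and not a bound site. None of the 5 called Sertoli genes, 4 myoid, 5 general germ cell or 10 cell cycle genes with a promoter entry held the element. Since only 3.92% of all promoters hold it, lists this short cannot show that it is rarer there. The interferon list was made of known interferon genes, called or not.

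Antiviral effectors are described first. Ifit2, which binds viral RNA and blocks its translation, read 6261 against 57.0, 80.0 and 195 and was 32.2-fold higher, the largest fold measured above the floor among the higher genes. The dynamin-like GTPase genes Mx1 and Mx2 read 2342 against 26.0, 48.6 and 119 and 2476 against 12.3, 50.8 and 104, or 19.7-fold and 23.9-fold. Ifit3 read 690.1 against 24.0, 35.6 and 70.7, Oas1a, a sensor of double-stranded RNA, 2652 against 39.8, 167 and 323, and Rsad2, the enzyme viperin, 1774 against 55.9, 79.3 and 319.5. Every one of these 6 genes was at least 5-fold above its brightest germ library, and that library was laminin-binding cells for Ifit2, Mx2, Oas1a and Rsad2 and the MSC1 culture for Mx1 and Ifit3.

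Isg15, a ubiquitin-like protein attached to other proteins during the response, read 24229.7 against 136, 364 and 2600.0, or 9.32-fold. Usp18, which removes Isg15 again, read 3282 against 87.3, 307 and 659, or 4.98-fold. Irf7, the transcription factor that amplifies the response, read 6321 against 84.6, 102 and 1023, or 6.18-fold. In all 3 genes laminin-binding cells were the brightest germ library. The membrane proteins Ifi27 and Ifitm3 read 8396 against 238, 551 and 1978 and 1464 against 53.3, 71.5 and 293, and the GTPase gene Gbp2 962 against 29.7, 92.2 and 218, with STO day 1 on top.

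Antigen presentation followed in part. B2m, the light chain of class I molecules, read 6154 against 294, 366 and 1116, or 5.51-fold, and Tap1, a subunit of the peptide transporter, 595 against 18.2, 43.1 and 75.8, or 7.85-fold. The B2m probe set may also detect related transcripts. Another probe set of B2m read 2644.7 against at most 882.4 in germ cells, or 2.997-fold, and 3107.3 in interstitial cells, and was not called. The immunoproteasome genes Psmb8, Psmb9 and Psmb10 were bright at 3397, 1609 and 1657 but read up to 1450.1, 695 and 1299 in a germ library and were not called. The transcription factor genes Stat2 and Irf1 were not called either, with 3133 against 3102 in laminin-binding cells for Stat2 and 249.6 against 89.4, 355 and 713 for Irf1. Irf1 was dimmer in tubular somatic cells than in 5 of the germ libraries. Of the 23 genes, 11 were also at least 3-fold above interstitial cells, among them Isg15 (596 there), Mx1 (166), Mx2 (32.1) and Irf7 (547), whereas Ifit2 read 3319 and Ifitm3 1675. The share of all genes that far above interstitial cells was not counted. The summed signal of the list was 80138 in tubular somatic cells, 21104 in interstitial cells, 16126 in laminin-binding cells and between 2356 and 7574 in the other germ libraries. The leukocyte antigen gene Ptprc read 1.6 and the integrin gene Itgam 2.6 in tubular somatic cells, and the summed signal of 16 macrophage genes was 936 there against 849 to 2495 in the germ libraries.

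**Figure D4:**
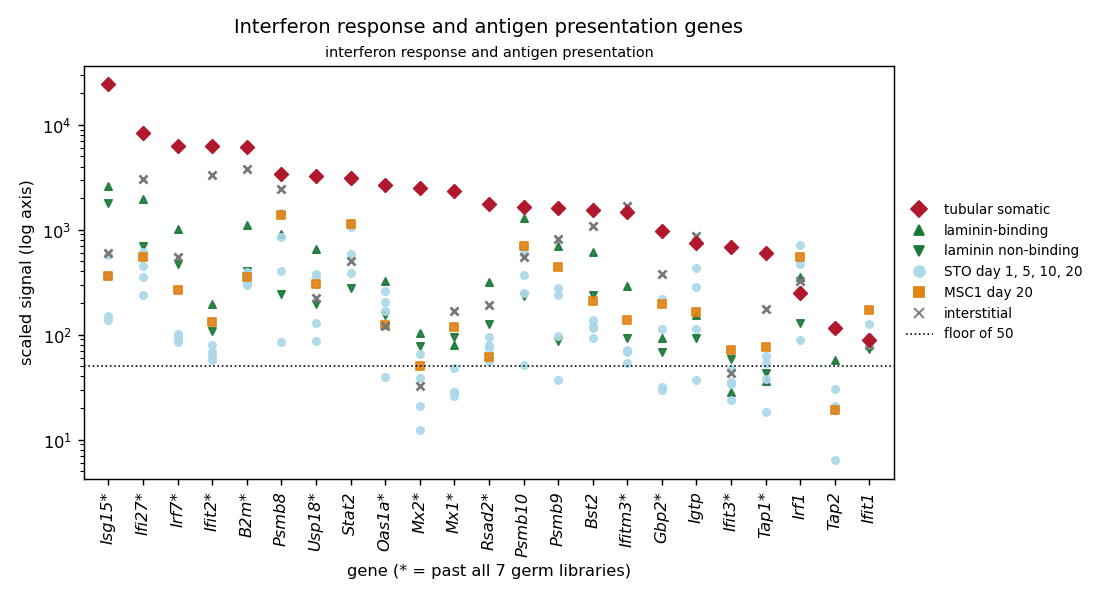
Scaled signal (log axis) of 23 interferon response and antigen presentation genes in tubular somatic cells (red diamonds), the 7 germ libraries and interstitial cells (crosses), ordered by the tubular signal. The asterisks mark the 14 genes beyond all 7 germ libraries, and laminin-binding cells (upward triangles) are the brightest germ library for Isg15, Irf7 and Ifi27.

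Basement membrane genes gave few calls, and several were bright in feeder cultures too. Of 19 genes, 2 (10.5%, beside 3.30% of all genes) were higher than all 7, with a median of 1.06. The laminin chain gene Lama4 read 526 against 2.2, 33.4 and 52.5, or 10.0-fold, and the collagen IV chain gene Col4a5 1343 against 52.0, 95.4 and 211, or 6.37-fold. Both were brighter in interstitial cells, at 1008 and 1505. Another probe set of Lama4 read 135.2 in tubular somatic cells against 31.7 to 171.1 in the germ libraries and was not called. Lamb1, Lamb2 and Lamc1, chains of the common laminins, read 1710.5, 1429 and 1986 in tubular somatic cells, but the MSC1 culture read 844, 618 and 673. For Lamc1 the fold was 2.95, just under the threshold. The linker protein gene Nid2 was brighter in 3 feeder cultures than in tubular somatic cells, with 717 against 2484 on STO day 1, 2554 on day 5 and 7597 on MSC1. Against the 2 laminin-sorted libraries alone, 7 genes of this list were higher, among them Lamb1, Lamb2, Lamc1, Col4a1 and Sparc. Without the MSC1 culture alone, 5 were higher than the other 6 libraries. Over all 13807 genes the counts rose too, from 455 to 670 against the laminin-sorted libraries alone and to 492 without the MSC1 culture.

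In the list of fibrillar collagens and other matrix, 3 of 31 genes (9.68%, beside 3.30% of all genes) were higher than all 7 and the median was 0.81. Serpinh1, the chaperone of collagen in the endoplasmic reticulum, read 782 against 29.8, 39.5 and 47.8, which is at least 15.6-fold, by a probe set that may also detect related transcripts. Interstitial cells were brighter for Serpinh1, at 1104. Tenascin C (Tnc) read 1005 against 3.4, 81.1 and 155, or 6.48-fold. Ccn2, connective tissue growth factor, read 6980.3 against 385, 1041 and 2207, or 3.16-fold, and was dimmer in interstitial cells at 743. The collagen cross-linking enzyme Lox read 1292, and its germ values lay between 41.3 and 114 except on STO day 20 (729) and MSC1 (553). Col1a2 showed the same order, with 875 in tubular somatic cells, 761 on STO day 20 and 539 on MSC1, and at most 141 in the other 5 germ libraries. Without STO day 20 alone 5 matrix genes were higher, as were 476 of all 13807 genes, beside 455 against all 7 libraries. Without both libraries, which was tried only after their values were known, 9 matrix genes, 5 basement membrane genes, 10 Sertoli genes and 8 myoid genes were higher. The count over all genes was not taken for that setting, so these 4 counts have no background beside them. Interstitial cells exceeded tubular somatic cells by at least 3-fold for 13 of the matrix genes, such as decorin (Dcn), with 4330.3 against 281, and lumican (Lum), with 1847 against 74.4. The share of all genes that far below interstitial cells was not counted.

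Of the secreted factors that act on germ cells, few passed all 7 libraries. Among 25 growth factor genes on the arrays, of which 18 had a signal above the floor, 3 (12.0%, beside 3.30% of all genes) were higher and the median was 0.00. The transforming growth factor genes Tgfb2 and Tgfb3, regulators of the blood-testis barrier, read 761 against 10.8, 42.8 and 70.8 and 980.0 against 53.1, 66.6 and 111, or 10.8-fold and 8.85-fold. Pdgfa, a ligand for receptors on interstitial and peritubular cells, read 548 against 27.6, 115 and 135, or 4.07-fold. Gdnf, the Sertoli factor that sustains stem spermatogonia, read 45.8, under the floor in every library. Kitlg, the ligand of Kit on differentiating spermatogonia, read 281 against 37.2, 64.8 and 110.2, or 2.55-fold, and interstitial cells read 521. The chemokine gene Cxcl12 and the growth factor gene Igf1 read 33.0 and 2.3 in tubular somatic cells and 2797 and 1916 in interstitial cells. Igf2 at 69.5 and Igfbp2 at 51.2 were dimmer than in every germ library, whose lowest values were 185 and 205, but not all germ signals reached 250. Without non-binding cells Igf2 passed as lower.

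Hedgehog and Notch genes gave 2 calls among 14 genes (14.3%, beside 3.30% of all genes). Besides the ligand gene Dhh, the Notch ligand gene Jag1 was higher, with 343 against 35.8, 42.6 and 87.4, or 3.93-fold. The hedgehog transducer genes Smo and Gli2 were brighter in feeder cultures than in tubular somatic cells, with 72.7 against 11.9, 232 and 349 for Smo and 21.0 against 70.7, 372 and 566 for Gli2. The receptor gene Notch1 read 158 against 63.9, 158 and 282, inside the germ range.

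In retinoid and nutrient supply, 1 of 15 genes (6.67%) was called, not far from the 3.30% of all genes. Aldh1a1, which makes retinoic acid in Sertoli cells, read 2507 against 65.7, 95.0 and 153, or 16.4-fold, and was brighter in interstitial cells at 3221. Aldh1a2, the form known from germ cells, was dimmer at 62.0 against 133, 447 and 939, and so was the retinoic acid binding protein gene Crabp1 at 65.1 against 159, 516 and 1252. Neither was called, since 3 of the germ signals of Aldh1a2 and 2 of those of Crabp1 lay under 250. Ldha, the muscle-type subunit of lactate dehydrogenase, read 4248 and its germ values reached 1913 in non-binding cells. Ldhb, the heart-type subunit, was no list gene but was among the 15 largest folds, with 5377 against 159, 204 and 255, or 21.1-fold. The lactate transporter gene Slc16a1 read 372 against 279, 354 and 479, inside the germ range. Without the MSC1 culture or without non-binding cells, 2 genes of this list were higher. Over all genes the counts in these settings were 492 and 481, beside 455 against all 7 libraries.

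Genes of phagocytosis and the lysosome were called for 3 of 21 (14.3%, beside 3.30% of all genes). Axl, a receptor that lets Sertoli cells take up dying germ cells, read 2840.1 against 225, 349.8 and 447, or 6.35-fold, while the related receptor Mertk read 2.1. The proteases and growth regulators of the lysosome were represented by Ctsk, with 763 against 47.1, 77.1 and 126, and progranulin (Grn), with 1079.7 against 111, 183 and 278. All 3 genes were as bright or brighter in interstitial cells, at 2939, 1568 and 1255. Common lysosomal genes such as Lamp1, at 3252 against 3125, 4320.5 and 4962, did not set the tubular library apart. Without non-binding cells 5 genes of this list were higher, as were 481 of all 13807 genes, beside 455 against all 7 libraries.

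Protease inhibitors and complement gave 5 calls among 14 genes (35.7%, beside 3.30% of all genes), with a median of 1.23. The metalloprotease inhibitor genes Timp1 and Timp3 read 1392 against 126, 211 and 457 and 1573 against 59.7, 97.1 and 236, or 3.05-fold and 6.67-fold. A2m, the broad inhibitor alpha-2-macroglobulin made by Sertoli cells, read 421 against 48.0, 73.4 and 100.5, or 4.19-fold. The complement protease genes C1r and C1s read 5101 against 106, 260.4 and 1045 and 3829 against 113, 271 and 1201, or 4.88-fold and 3.19-fold. Of the 5 genes, only Timp3 was at least 3-fold above interstitial cells, where it read 361.

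Glutathione and antioxidant genes were called for 6 of 20 (30.0%, beside 3.30% of all genes), with a median of 0.72. The glutathione transferase gene Gsta1, whose product also takes part in steroid synthesis, read 2823 against 79.6, 118 and 315, or 8.96-fold. Gsta4, Gstm2 and Gstp1, of the same enzyme family, read 969, 256 and 878 against highest germ values of 207, 47.8 and 187. The membrane-bound transferase Mgst1 read 3473 against 93.2, 154 and 409.5, or 8.48-fold, and the mitochondrial superoxide dismutase Sod2 2329 against 133, 223 and 639, or 3.65-fold. None of the 6 genes was 3-fold above interstitial cells. The cytosolic enzyme Sod1 was brightest in the laminin-sorted germ cells, at 7045 and 6089.6 against 3174. Gclm, a subunit of the enzyme that starts glutathione synthesis, read 561 in tubular somatic cells, under all 7 germ values of 589, 1307 and 2788.

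Immediate early genes, a quick and brief reply to stimulation, closed the higher side of the lists with 2 calls (15.4%, beside 3.30% of all genes). Ier3, a regulator of cell survival, read 892 against 35.6, 82.4 and 168, or 5.29-fold, and the phosphatase gene Dusp1 1235 against 87.2, 119 and 277, or 4.46-fold. The Fos genes, of the 13 on the arrays, were instead dim, with 89.1 for Fos and 13.9 for Fosb against 1143 and 1101 in laminin-binding cells. Laminin-binding cells stood out for this list, with a summed signal of 10771. The sum was 4039.6 in tubular somatic cells and between 2431 and 3984 in the other germ libraries.

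Markers of cells that could accompany the tubular somatic cells were mostly at or near the floor. No call was made among 10 steroidogenic, 16 macrophage and leukocyte, 11 endothelial and 2 red cell genes by their list probe sets. Of the Leydig genes, Hsd3b1 read 8.6 in tubular somatic and 2400.2 in interstitial cells, and Cyp17a1, Insl3 and the receptor gene Lhcgr read 4.8, 15.4 and 3.4 in tubular somatic cells. The cholesterol carrier gene Star was an exception at 672, against 2094 in interstitial cells and up to 404 in a germ library, STO day 20, without which it would pass. Nr5a1, a transcription factor shared by Sertoli and Leydig cells, was called by a probe set other than its list's, with 646.5 against at most 90.9. The endothelial gene Pecam1 read 1.6 and the macrophage gene Cd68 56.1, against 1047 in interstitial cells, whose macrophage genes summed to 6280.1. The summed signal over all 10 steroidogenic genes was 7500.2 in tubular somatic cells and 1755 to 6008 in germ cells, most of it Fdx1, the electron carrier of steroid synthesis, with 6518. Over the endothelial genes the sum was 698 against 658 to 1108, and over the red cell genes 69.0 against 21.3 to 279.8.

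The other direction of the comparison was that of germ cell transcripts. Of the 8 general germ cell genes on the arrays, out of 13 in the list, 7 (87.5%, beside 1.56% of all genes) were lower in tubular somatic cells than in all 7 germ libraries, and the median was -4.43. Tex15, needed for meiotic recombination and for silencing of transposons, read 219 in tubular somatic cells and 3681, 12646 and 17497 in the germ libraries, so that the dimmest germ library, non-binding cells, was 16.8-fold above it. Tex19.2, a mammalian germline protein, read 53.6 against 1011, 2237 and 3977, or 18.9-fold. Tex14, a component of the bridges between germ cells, read 136 against 1756, 4114 and 5442, or 12.9-fold. Interstitial cells were dim for them as well, at 71.1, 116 and 139.9.

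Genes of the piRNA pathway, which silences transposons in germ cells, showed the same pattern. Tdrd1, a scaffold of the pathway, read 303 against 2836, 8467 and 12405, Mov10l1, its helicase, 8.6 against 420.1, 484 and 1686, and Piwil2, which binds the small RNAs, 126 against 595, 1154 and 3126. The germ cell surface protein Tex101 read 59.5 against 639.8, 787 and 2927. Of the 8 genes only the helicase gene Ddx25 was not called, with 7.0 against 34.2, 129 and 1053, since 5 of the 7 germ signals were under 250. The tubular signal of 303 for Tdrd1 and 219 for Tex15 was above the floor. The summed signal of the 8 genes was 913 in tubular somatic and 922 in interstitial cells, against 17951 to 34613 in germ cells.

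Meiotic genes were lower for 4 of 8 (50.0%, beside 1.56% of all genes), with a median of -3.13. Sycp3, of the synaptonemal complex that pairs chromosomes, read 74.5 against 548, 926 and 4181, or 7.35-fold. The cohesin subunit genes Stag3 and Smc1b read 54.6 against 629, 945 and 3137 and 113 against 388, 1636 and 6072, or 11.5-fold and 3.44-fold, and Syce3 50.2 against 272, 395 and 508. Spo11, which makes the breaks that start recombination, was bright in non-binding cells (2417) and on STO day 20 (2381) only and was not called, with 4.5 in tubular somatic cells. No gene of the 10 in the pachytene list passed by its list probe set, and Hspa2, a chaperone of spermatocytes, passed by another, with 107.2 against at least 576.4. Ldhc, the sperm lactate dehydrogenase, and Crisp2, a secreted protein of the sperm acrosome, read 6938 and 3811 in non-binding cells but under 150 in the other 6 germ libraries.

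Spermatogonial genes mostly missed the rule, as single germ libraries were dim for them. Of 14 genes of undifferentiated spermatogonia, 1 (7.14%, beside 1.56% of all genes) was lower than in all 7, Epcam, an adhesion protein of germ cells and epithelia, with 43.6 against 636, 771 and 2617, or at least 12.7-fold. The median of that list was -1.47. The GDNF receptor gene Ret read 1.9 in tubular somatic cells and 48.6, 707 and 1729.5 in germ cells, with the lowest value on STO day 20 under the floor. No gene of the 7 of differentiating spermatogonia passed. The DNA methylase gene Dnmt1 and Sohlh1, a transcription factor of differentiation, were dim in tubular somatic cells, at 12.9 and 54.1, and not bright enough in every germ library, with lowest values of 83.6 and 166. Without non-binding cells Dnmt1 passed.

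Proliferation genes were also on the lower side. Of 25 cell cycle and replication genes, 11 (44.0%, beside 1.56% of all genes) were lower than in all 7 germ libraries, none was higher, and the median was -2.29. Mki67, the usual proliferation marker, read 127 against 1320.5, 1575 and 2820.5, or 10.4-fold. The mitotic cyclin genes Ccnb1 and Ccnb2 read 123 against 1084, 1349 and 1889 and 88.5 against 598, 1038 and 1332, or 8.82-fold and 6.76-fold. Ccna2, which acts in both replication and mitosis, read 144 against 678, 1241 and 3351. Interstitial cells lay between the tubular and the germ signals for Mki67 (331), Ccnb1 (446) and Ccnb2 (335).

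Of the replication machinery, Mcm5 and Mcm7, subunits of the replicative helicase, read 105 against 724, 1252 and 1626 and 102 against 572, 1647 and 2834, or 6.89-fold and 5.60-fold. Mcm2, Mcm3, Mcm4 and Mcm6 were also dimmer than in every germ library, but their dimmest germ libraries were only 1.75, 2.09, 2.44 and 2.37-fold above tubular somatic cells. Top2a, which untangles replicated DNA, read 85.2 against 426, 950.3 and 2423. The spindle checkpoint genes Bub1 and Bub1b read 283 against 1771, 3663 and 8078 and 8.6 against 252, 489.7 and 608, the activator gene Cdc20 96.8 against 731, 1521 and 1710.1, and the kinase gene Aurka 70.1 against 260.0, 384 and 458. Pcna, the sliding clamp of replication, read 922 in tubular somatic cells against 2515, 2712 and 3798. Interstitial cells were brighter than tubular somatic cells by at least 3-fold for 7 of the 25 genes, a count with no share of all genes beside it. The summed signal of the list was 7713 in interstitial cells, 3762 in tubular somatic cells and 22539.8 to 29035 in germ cells.

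**Figure D5:**
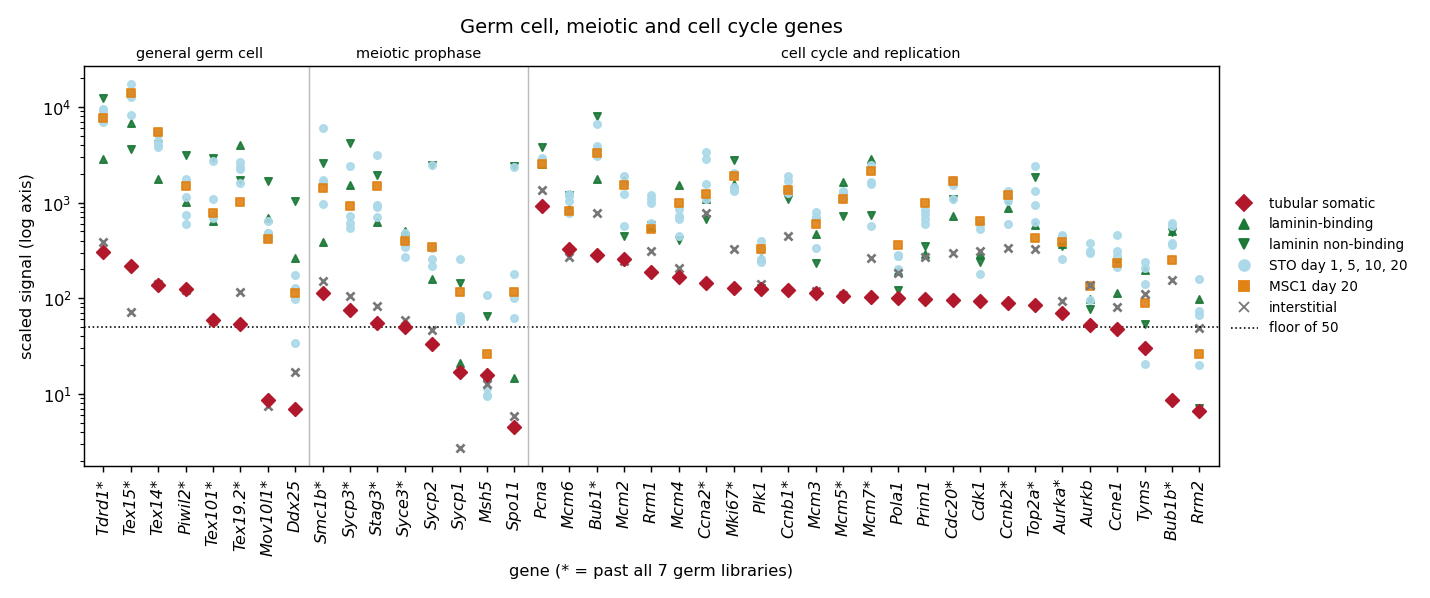
Scaled signal (log axis) of 8 general germ cell, 8 meiotic prophase and 25 cell cycle genes in tubular somatic cells (red diamonds), the 7 germ libraries and interstitial cells (crosses), with the floor of 50 as a dotted line. The asterisks mark 7, 4 and 11 genes lower in tubular somatic cells than in all 7 germ libraries.

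Outside the lists, the 15 largest folds on the higher side, taken over all probe sets with 1 gene, again included genes of the interferon response. Gbp4, a guanylate-binding GTPase, read 11458 against 9.6, 69.9 and 472, or 24.3-fold, and Ifi44l 3884 against 12.7, 85.0 and 197, or 19.7-fold. Mme, the membrane peptidase neprilysin, read 2362 against 18.9, 53.0 and 103, or 22.8-fold. Gatm, the first enzyme of creatine synthesis, read 2016 against 9.7, 38.1 and 103, or 19.5-fold, and Fstl3, a secreted inhibitor of activin, 9943 against 125, 338 and 523, or 19.0-fold. For these 5 genes laminin-binding or non-binding cells were the brightest germ library. The chromatin remodeller Smarca1 read 1581, the kinase gene Pak3 1002, the receptor gene Il17re 1075 and the membrane protein gene Ttyh1 1608, against highest germ values of 70.9, 54.5, 61.3 and 98.1. C13h1orf115 read 6307 against 83.9, 215 and 289. For 4 of these genes the probe set that stands for the gene in the counts over genes is another one and was not called. It read 61.5 in tubular somatic cells and at most 30.5 in germ cells for Fstl3, 554.5 and at most 282.0 for Pak3, 244.9 and at most 91.1 for Il17re, and 362.4 and at most 1481.2 for C13h1orf115.

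Of the higher genes, 15 lay under the floor in all 7 germ libraries. Myoz2, a protein of the muscle Z-disc, read 881 against 1.1, 2.1 and 46.9, and Kcne1, a potassium channel subunit, 663 against 3.3, 5.1 and 21.5, which are at least 17.6-fold and at least 13.3-fold. Interstitial cells read 2.3 and 3.0. On the lower side, Igf2bp3, an RNA-binding protein of embryonic and germ cells, read 13.4 in tubular somatic cells against 1708, 2385 and 3264, which is at least 34.2-fold. Cpeb1, which controls translation of stored mRNA, read 43.9 against 1040.0, 1284 and 1993, and Erhl1 6.2 against 1022, 1770.4 and 2243. In these 5 genes the fold is a bound set by the floor.

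Among lower genes with a symbol that were measured on both sides, Dxo, an enzyme that removes faulty RNA caps, led with 68.8 against 1389, 2509.7 and 3321, or 20.2-fold. The mitotic motor Kif15 read 112 against 1811, 2089 and 2498, the kinase Pbk 60.9 against 964, 2044 and 2456, and the kinetochore protein Spc25 55.6 against 760.4, 1260.3 and 1616. Ccne2, a cyclin of the start of replication, read 52.8 against 646, 740.0 and 2499.6, and the DNA repair genes Fancd2 and Recql4 81.3 against 975, 1572 and 1946 and 121 against 1364, 1995 and 2218. Germline genes completed the set, with 82.6 against 967, 1864 and 2707 for Gpat2, which acts in piRNA production, and 127 against 1447, 4464 and 5696 for Taf7l, a transcription initiation factor of spermatogenesis. Tro, the adhesion protein trophinin, and Depdc7 read 91.3 and 86.9 against lowest germ values of 1328 and 1085.

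Interstitial cells show which of the higher genes were also set apart from another somatic fraction. Of the 455 genes, 183 were at least 3-fold above interstitial cells, 265 lay within 3-fold and 7 were at least 3-fold below. Because the 455 were selected for a high tubular signal on the same arrays, the selection itself favours folds above interstitial cells. The share of all genes on each side of interstitial cells was not counted, here or for the lists above. The median signal of the 455 genes was 1116.1 in tubular somatic cells, 555.2 in interstitial cells and 109.7 in the germ libraries. Testin, a product of Sertoli cell junctions, read 5230.5 in tubular somatic cells, 318 in interstitial cells and 30.1, 61.5 and 388 in germ cells, or 13.5-fold. The sodium channel subunit gene Scn4b read 3738 against 377 in interstitial cells, and villin (Vil1), which bundles actin in microvilli, 3061 against 111. For the 216 lower genes the medians were 126 in tubular somatic, 219 in interstitial and 1146.5 in germ cells, and interstitial cells exceeded tubular somatic cells by at least 3-fold for 44. The 216 were likewise selected for a low tubular signal.

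Probe sets of the same gene often did not agree. Of the 455 higher genes, 155 had several probe sets, and for 40 of these another one was called too, as for Ifit2, with 825.3 in tubular somatic cells against at most 100.1. Of the 216 lower genes, 50 had several and 7 another call. For Wt1, Gata4, Cldn11, Gja1, Mx2, Tap1, Timp3, Gatm, Cald1, Serpinh1, Dusp1, Tgfb2 and Tpm1 a further probe set read under 100 in tubular cells. It was not called, with values such as 18.1 for Wt1, 85.5 for Gata4, 7.2 for Cald1 and 21.3 for Serpinh1. For the lower gene Ccne2 another probe set read 223.6 in tubular somatic cells against 94.3 to 257.7 in the germ libraries and was not called. Which probe set fits the transcripts better was not tested. With a floor of 100 in place of 50, 7 of the 30 genes with the largest folds had folds over 1.5 times smaller, such as 10.1 for Tex19.2 and 6.29 for Stag3.

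The threshold divides genes that hardly differ. Mmp3 and Rhpn2 were just inside with folds of 3.01 each, and Gla and Cyp1b1 just outside with 2.99 each. On the lower side Rtn1 at 3.01 and Ddx11 at 3.04 were inside, and Fzd3 at 2.998 and Pold1 at 2.996 outside. The 100 probe sets that both array types hold measure the error of the arrays. The log2 difference between tubular somatic cells and a germ library deviated between the types with a standard deviation of 0.22 to 0.32 per type, with a mean of 0.26, so that 2 standard deviations correspond to 1.44-fold. The largest single difference between the types was 1.04 to 2.09 in log2 by germ library, which for some libraries is more than the 3-fold of a call. Of these 100, 1 was called higher on type A and 2 on type B, with 1 in common, and none was called lower. This error covers the arrays and not the animals, the isolation or the amplification.

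As a measure of RNA quality, the 3' signal of Gapdh over its 5' signal was 11.2 and 16.7 in tubular somatic cells on types A and B, and 5.63 to 29.7 and 5.33 to 27.1 in the germ libraries. For actin it was 67.3 and 48.9 against 8.91 to 94.3 and 11.6 to 95.4. The tubular values lay within the range of the 7 germ libraries but above both laminin-sorted libraries in each case. On type A, laminin-binding and non-binding cells read 7.07 and 5.63 for Gapdh and 21.6 and 8.91 for actin. On type B they read 8.83 and 5.33 for Gapdh and 13.1 and 11.6 for actin. In tubular somatic cells 60.7% of type A and 74.3% of type B probe sets reached the floor, against 59.4% to 70.4% and 68.1% to 74.3% in germ cells. The part of these values in the calls was not tested.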

How the data were processed

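The values were linear signal intensities per probe set, as deposited by the authors, from 1-colour arrays of types A and B with 15923 and 15333 probe sets. Per the labels, the authors scaled the intensities of each array so that they averaged 250, after amplification of 50 ng of RNA in 2 rounds, with a Tau of 0.015 for detection calls. The tool that made the signals is not given in the sources used here.

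Types A and B were read separately, control probe sets (57 per type) were left out, and the 100 probe sets shared by both types were taken from type A. Signals were raised to a floor of 50 and set on a log2 scale. In counts over genes and in the lists, a gene was read by its brightest probe set with 1 gene, on type A first. With 1 array per population and type there was no test. Gene symbols came from the platform annotation, and gene positions and promoters (250 bases before to 50 after each start) from RefSeq, assembly GRCr8. Motifs were searched on both strands of each promoter. The serum response factor motif, the CArG box, was in 548 of 33469 promoters (1.64%) and the cyclic AMP element (TGAC joined to GTCA) in 612 (1.83%), and neither was in the promoter of a called myoid (0 of 4) or general germ cell gene (0 of 5), respectively. Of the called genes, Tagln and Myl9 (myoid) and Tex15 and Piwil2 (germ cell) had no promoter entry.

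The genes named were the 15 with the largest fold in each direction by any of their probe sets, counting those at or above the floor on the dim side, called list genes, list genes that define a cell type, and genes beside the threshold. Genes of which the dim side lay under the floor, genes also above interstitial cells (Testin, Scn4b and Vil1) and the other list members that were not called were named after their values were seen. The members and lists were chosen with earlier results of these data known. Scripts were tested on simulated data. Python 3.11.15, numpy 2.4.6, pandas 2.3.3 and matplotlib 3.10.9 were used. Other floors, folds, signal minima, scalings, array types and library sets were tried as alternatives.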

Additional observations from a re-analysis of the deposited data

How the results depend on the processing

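No alternative turned the sign of the medians of the Sertoli, myoid, interferon, matrix, glutathione, general germ cell, meiotic and cell cycle lists, and the medians of the other lists were not recomputed. With a 2-fold threshold 1284 probe sets were higher and 634 lower than all 7 germ libraries. By gene, 719 of 13807 were higher at 2-fold, 10 of them myoid genes. With a 5-fold threshold the counts were 375 and 152 probe sets. By gene, 216 of 13807 were higher at 5-fold, with 5 Sertoli and 3 myoid genes among them. A minimum of 500 on the bright side left 189 lower. Against the laminin-sorted libraries alone 590 were lower, and against the feeder cultures alone 585. Type A alone gave 426 higher and 144 lower, and type B alone gave 358 and 158. By gene, 127 were lower on type A alone, 2 of them general germ cell genes. These counts follow from fewer libraries, fewer probe sets or another threshold. Leaving out each germ library in turn gave 795 to 919 higher and 306 to 402 lower. Scaling to the 75th percentile gave 786 and 309 calls, of which 757 and 285 were the same probe sets, and quantile scaling gave 792 and 306, with 753 and 279 the same. All 30 genes with the largest folds were still called with floors of 25 and 100 and under both scalings. The floor of 100 lowered 7 folds by over 1.5 times, to 10.1 for Tex19.2, 10.8 for Il17re, 10.0 for Pak3, 9.64 for Pbk, 7.60 for Spc25, 6.46 for Ccne2 and 6.29 for Stag3. Against the laminin-sorted libraries alone 11 matrix and 16 interferon genes were higher, as were 670 of all 13807 genes, beside 455 against all 7 libraries. No paired analysis was possible because each population was read once per array type. Signals near the floor limit every fold against a dim side.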

Other observations

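Some genes with no place in the lists were high in tubular somatic cells alone. Rassf4, a Ras effector, read 1658 in tubular somatic cells, 112 in interstitial cells and 59.0, 79.2 and 105 in germ cells. Gna14, a G protein subunit, read 935 against 34.5 in interstitial cells and 2.5, 22.7 and 66.0 in germ cells. Rflnb, a protein that binds filamin, read 8191 against 478 and 273, 442 and 889. Each was at least 3-fold above interstitial cells and above every germ library. These genes were picked after their values were seen.

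Socs5, an inhibitor of cytokine signalling, was the only gene called in both directions. A probe set of type B read 2753 in tubular somatic cells, 5019.4 in interstitial cells and 314 to 569.5 in germ cells, and a probe set of type A read 115, 238 and 448 to 1649.

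Several higher genes had a probe set that stayed dim in every library. For Mx2 the values of the further probe set were 22.8 in tubular somatic cells and at most 29.1 in germ cells, for Timp3 6.90 and at most 25.2, and for Cldn11 19.7 and at most 49.3.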
